A study of Caenorhabditis elegans with 2 samples.

Results

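The cytosolic ribosomal protein genes of Caenorhabditis elegans are the 78 protein-coding genes whose names start with rpl- (47 genes, large subunit) or rps- (31 genes, small subunit), of 19985 protein-coding genes annotated in the WBcel235 assembly. The members were taken by name alone, but earlier results of these data were known when the family was chosen. DMD-4 was mapped across the genome by chromatin immunoprecipitation and sequencing (ChIP-seq) in whole L2 larvae, in 1 group of 2 biological replicates. The worms were of strain OP418, with males and females pooled. The strain carries the unc-119 allele tm4063 and the transgene wgIs418, which makes DMD-4 with a GFP-FLAG tag at its C terminus. Both replicates share this genotype, stage and treatment, so no second condition was available to set them against. The tagged protein comes from the transgene, and whole animals mix all tissues, so strong occupancy in a few cells and weak occupancy in many cannot be told apart. Of the deposited lists of enriched regions in the ce11 assembly, which is the sequence of WBcel235, 4 are used here. The pooled candidate list held 11281 regions, the lists of replicate 1 and replicate 2 held 17531 and 18240, and 212 regions passed the irreproducible discovery rate (IDR), a filter for regions that rank alike in the replicates. A gene was counted when the summit of a region, its point of highest signal, fell from 1000 bp upstream to 200 bp downstream of one of its annotated transcript starts.

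Ribosomal proteins are the constant building blocks of the ribosome. The large subunit joins amino acids into protein, and the small subunit decodes messenger RNA. The genes are among the most strongly expressed in any growing cell, and an animal needs their products in roughly equal amounts. In nematodes, many of their transcripts are trans-spliced, so that an annotated 5′ end can lie downstream of the place where transcription starts. DMD-4 belongs to the DM-domain family of transcription factors, which is best known for sex-specific development and includes MAB-3 in worms and Doublesex in flies.

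The promoter windows of 10 ribosomal protein genes held an IDR region, and the DNA at 6 of these summits is shown here. Each line gives 201 bases, 5′ to 3′ on the strand of the gene, with the summit of the pooled region in the middle. The sequences are from WBcel235: rpl-20 at chrIV:4749989-4750189 (minus strand), rpl-3 at chrIII:3867455-3867655 (plus), rpl-15 at chrIV:654824-655024 (minus), rpl-35 at chrIII:7854614-7854814 (plus), rps-1 at chrIII:4475557-4475757 (plus) and rpl-12 at chrIV:13240612-13240812 (minus). All 6 summits lay outside annotated protein-coding genes. Capitals mark 7-base words, on either strand, that recurred in 4 or 5 of the 10 windows and are described further on. The 6 were not picked by these words, some of which also lie at rpl-24.2 and rps-15, not shown.
rpl-20: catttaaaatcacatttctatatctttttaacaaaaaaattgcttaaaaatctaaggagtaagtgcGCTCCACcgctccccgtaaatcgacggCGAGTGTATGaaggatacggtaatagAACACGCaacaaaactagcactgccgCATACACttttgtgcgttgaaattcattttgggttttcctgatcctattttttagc
rpl-3: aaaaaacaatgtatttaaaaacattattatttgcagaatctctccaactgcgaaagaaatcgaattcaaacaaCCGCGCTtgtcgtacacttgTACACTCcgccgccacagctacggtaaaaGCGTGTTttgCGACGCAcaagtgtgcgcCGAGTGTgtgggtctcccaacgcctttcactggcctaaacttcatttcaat
rpl-15: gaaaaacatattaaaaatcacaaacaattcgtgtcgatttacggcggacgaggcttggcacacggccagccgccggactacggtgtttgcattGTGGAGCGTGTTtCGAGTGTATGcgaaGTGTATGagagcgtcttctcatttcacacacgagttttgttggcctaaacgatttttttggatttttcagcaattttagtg
rpl-35: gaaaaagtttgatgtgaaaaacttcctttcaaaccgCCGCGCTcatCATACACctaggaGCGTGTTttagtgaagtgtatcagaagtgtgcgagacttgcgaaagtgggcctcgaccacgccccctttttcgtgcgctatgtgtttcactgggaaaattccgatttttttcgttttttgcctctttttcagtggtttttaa
rps-1: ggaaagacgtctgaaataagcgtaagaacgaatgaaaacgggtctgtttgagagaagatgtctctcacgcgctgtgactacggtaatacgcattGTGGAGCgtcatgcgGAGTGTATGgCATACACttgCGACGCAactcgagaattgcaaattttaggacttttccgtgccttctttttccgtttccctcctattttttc
rpl-12: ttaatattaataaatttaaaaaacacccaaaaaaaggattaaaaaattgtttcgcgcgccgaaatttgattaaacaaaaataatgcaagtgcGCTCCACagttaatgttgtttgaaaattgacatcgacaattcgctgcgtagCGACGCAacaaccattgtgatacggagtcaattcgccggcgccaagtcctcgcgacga

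Of the 78 ribosomal protein genes, 10 (12.8%) had an IDR region, against 174 (0.871%) of all protein-coding genes. The 10 are rpl-20, rpl-3, rpl-15, rpl-35, rpl-24.2 and rpl-12 of the large subunit and rps-12, rps-20, rps-1 and rps-15 of the small subunit. A region of the pooled list was present at 39 ribosomal protein genes (50%), against 18.1% of all protein-coding genes. The list of replicate 1 gave a region at 43 (55.1%), against 26.1% of all genes, and the list of replicate 2 at 44 (56.4%), against 26.4%. Both replicates gave one at 33 ribosomal protein genes (42.3%), against 12.3% of all genes, and at least 1 of the lists at 55 (70.5%), against 41.1%. The shares of ribosomal protein genes were above the shares of all genes in every list used here. They are descriptive shares with no test, since there was 1 group and the genes form 1 family.

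**Figure D1:**
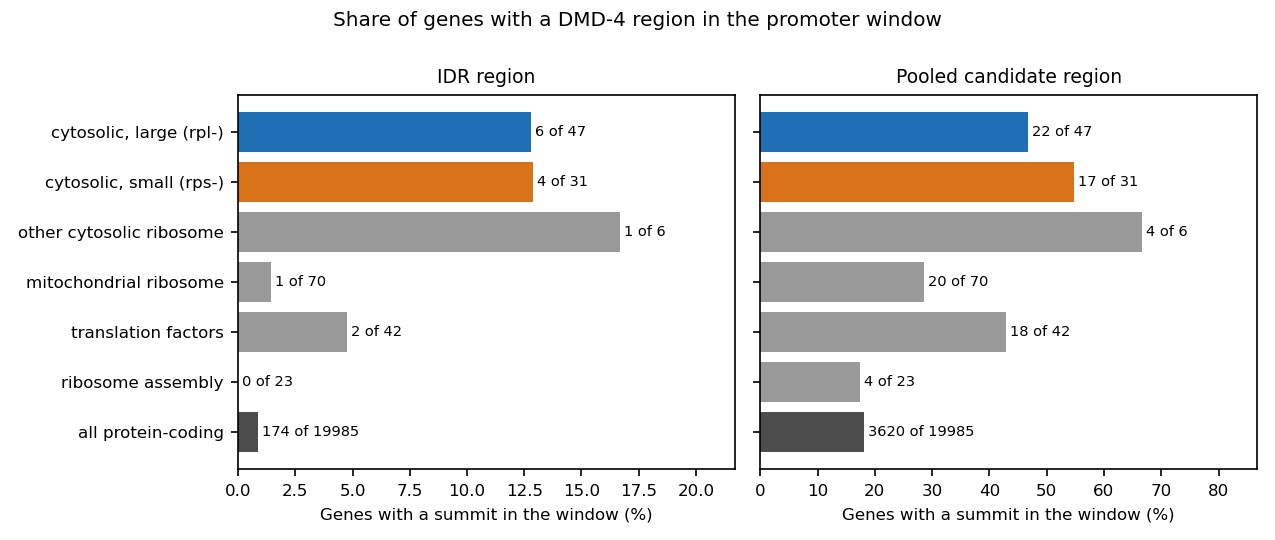
Share of genes, in percent, with an IDR region and with a pooled region in the promoter window, by gene list. IDR regions were present at 12.8% of large and 12.9% of small subunit genes, at 1 of 6 other cytosolic ribosome genes and at 0.871% of all protein-coding genes.

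The strongest pooled regions among ribosomal protein genes lay at rpl-20 and rpl-3. The signal given here is the authors' enrichment value for a region, whose scale is not stated, and it is compared only within a list. In the pooled list its median over all regions was 16.6 and its highest nuclear value 251.6. Regions of mitochondrial DNA reached 19910, and such regions count in the ranks, the list medians and the shares of all protein-coding genes. At rpl-20, a large subunit gene, the signal was 215.4 in the pooled list, 110.6 in replicate 1 and 99.4 in replicate 2. The pooled region (chrIV:4750011-4750155, rank 31 of 11281) had its summit 311 bp upstream of the nearest rpl-20 start site. Its replicate summits lay 287 and 300 bp upstream. At rpl-3, which encodes a core large subunit protein near the peptidyl transferase centre in yeast, the signals were 214.1 pooled, 129.4 in replicate 1 and 90.9 in replicate 2. Its pooled region (chrIII:3867483-3867642, rank 32) had its summit 299 bp upstream. Both genes ranked between 30 and 36 in each of the 3 candidate lists. Their pooled regions, 145 and 160 bp wide, were narrower than the median pooled width of 350 bp. In replicates 1 and 2 the widths were uneven, at 344 and 99 bp for rpl-20 and 120 and 350 bp for rpl-3.

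The other large subunit genes with an IDR region lay lower in the list. At rpl-15 the signals were 140.3 pooled, 55.8 in replicate 1 and 81.0 in replicate 2, with the pooled summit (chrIV:654749-655098) 348 bp upstream. At rpl-35, which encodes a protein near the exit of the nascent peptide tunnel in yeast, they were 103.4 pooled, 45.5 in replicate 1 and 59.4 in replicate 2, with the summit (chrIII:7854539-7854888) 420 bp upstream. That was the most distant summit among the 10 genes with an IDR region. At rpl-24.2, related to a yeast protein that joins the large subunit during its assembly, they were 91.9 pooled, 44.7 in replicate 1 and 46.4 in replicate 2. Its summit (chrI:9669101-9669450) lay 139 bp upstream and inside the annotated gene C03D6.1, so this was the single summit of the 10 within a gene. At rpl-12, part of the stalk base where translation factors act, the signals were 77.3 pooled, 47.0 in replicate 1 and 28.7 in replicate 2. Its summit (chrIV:13240537-13240886) was the nearest to a start site among the 10, at 61 bp upstream, and the window held a second pooled region.

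The pooled signals of the small subunit genes with an IDR region ran from 50.2 to 143.5, against 77.3 to 215.4 for the large subunit genes. At rps-12, whose fly counterpart acts in cell competition, the signals were 143.5 pooled, 85.7 in replicate 1 and 53.7 in replicate 2. The pooled region was 124 bp wide, against 344 bp in replicate 1 and 350 bp in replicate 2. Its summit lay 169 bp upstream. At rps-20, a protein of the head of the small subunit, they were 97.8 pooled, 47.1 in replicate 1 and 59.1 in replicate 2, with the summit (chrI:14469207-14469556) 279 bp upstream. At rps-1 they were 82.8 pooled, 40.7 in replicate 1 and 41.8 in replicate 2, with the summit (chrIII:4475482-4475831) 261 bp upstream. At rps-15, a protein of the head whose tail reaches toward the decoding centre in human ribosomes, they were 50.2 pooled, 29.0 in replicate 1 and 19.9 in replicate 2. Its summit (chrI:8816414-8816763) lay 396 bp upstream. Among the 10 genes rps-15 had the lowest signal in each of the 3 candidate lists, near the lowest signal in the IDR list, 46.4. The other 9 genes stood above the median of the IDR list, 65.5.

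**Figure D2:**
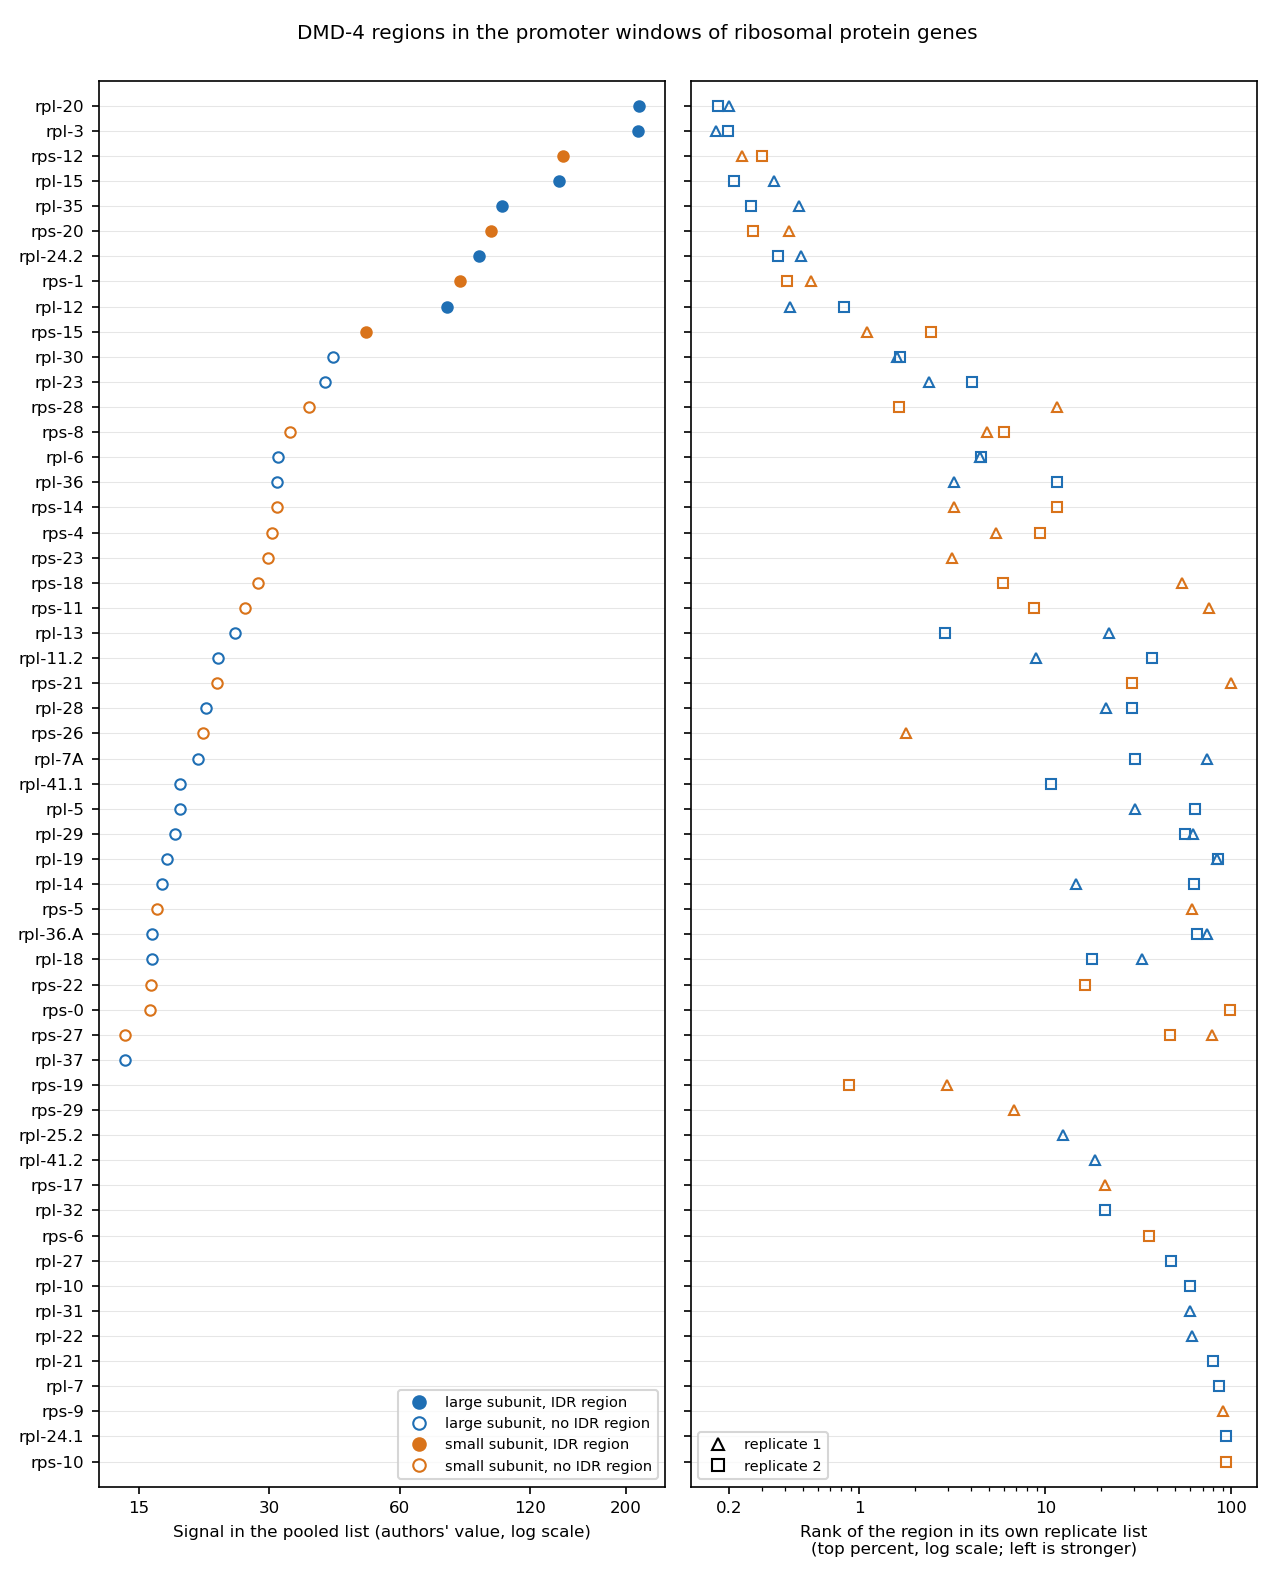
Signal of the strongest region of each ribosomal protein gene in the pooled list (left, log scale) and its rank in each replicate's own list as a top percent (right, log scale, smaller is stronger), for the 55 genes with a region in any list. The 10 genes with an IDR region have the highest pooled signals and, except for rps-15 in replicate 2, the highest ranks in both replicates, while rps-19 ranks high in both with no pooled point.

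A further 29 ribosomal protein genes had a pooled region but no IDR region. The strongest was rpl-30, whose yeast counterpart regulates its own splicing, at 42.1 in the pooled list, 25.0 in replicate 1 and 22.4 in replicate 2. The next was rpl-23, at the interface of the subunits, at 40.3 pooled, 22.1 in replicate 1 and 17.3 in replicate 2. Then came rps-28 at 37.1, rps-8 at 33.5, rpl-6 at 31.4, rps-4 at 30.4, rps-23 at 29.8, rps-18 at 28.3, rps-11 at 26.4 and rpl-13 at 25.0 in the pooled list. The divergent genes rpl-36 and rps-14 shared 1 region with a pooled signal of 31.3, which lay 324 bp upstream of rpl-36 and 339 bp upstream of rps-14. These 12 genes ranked from the top 2.38% to the top 11.8% of the pooled list. Their replicate ranks were less even. For example, rps-11 stood at the top 75.9% in replicate 1 and the top 8.66% in replicate 2, rps-18 at the top 54.3% and the top 5.95%, and rps-23, which encodes a protein of the decoding centre, had a region in replicate 1 alone, at 20.1.

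The weakest pooled regions of ribosomal protein genes lay just under the median signal of the list at rpl-36.A (16.1), rpl-18 (16.0), rps-22 (16.0) and rps-0 (15.9). Those at rps-27 (13.9) and rpl-37 (13.9) were nearer its lowest signal, 13.0, at the top 85.0% and the top 85.2%. The region of rpl-37 had no counterpart in its window in either replicate's list, and its summit lay inside the neighbouring gene pitp-1. Across the 39 genes the median pooled signal was 28.3, against 17.8 over the 3620 protein-coding genes with a pooled region. Of the 39, 21 (53.8%) stood in the top 10% of the pooled list, against 18.3% of all genes with a pooled region. By subunit the median was 23.9 for the 22 large subunit genes and 29.8 for the 17 small subunit genes, and 45.5% and 64.7% of them stood in the top 10%.

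None of the lists used here had a summit in the window at 11778 of all 19985 protein-coding genes. The same held for 23 of the 78 ribosomal protein genes (29.5%). For the large subunit these were rpl-1, rpl-2, rpl-4, rpl-9, rpl-11.1, rpl-16, rpl-17, rpl-25.1, rpl-26, rpl-33, rpl-34, rpl-38, rpl-39, rpl-42 and rpl-43, or 15 of 47. For the small subunit these were rps-2, rps-3, rps-7, rps-13, rps-16, rps-24, rps-25 and rps-30, or 8 of 31. They include genes of the core of either subunit, such as rpl-4, which lines the peptide tunnel, and rps-3, which lies at the entry of messenger RNA. A further 7 genes had a region in replicate 1 alone (rpl-22, rpl-25.2, rpl-31, rpl-41.2, rps-9, rps-17 and rps-29), from the top 6.75% at rps-29 to the top 90.0% at rps-9. That is 8.97% of the family, against 9.73% of all protein-coding genes. Another 8 had one in replicate 2 alone (rpl-7, rpl-10, rpl-21, rpl-24.1, rpl-27, rpl-32, rps-6 and rps-10), from the top 20.8% at rpl-32 to the top 93.2% at rpl-24.1 and rps-10, or 10.3% of the family, against 10.6% of all genes. Both shares were near the background. No summit in a window says that no region was listed there, not that DMD-4 was absent, and the depth of the libraries is not known here.

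**Figure D3:**
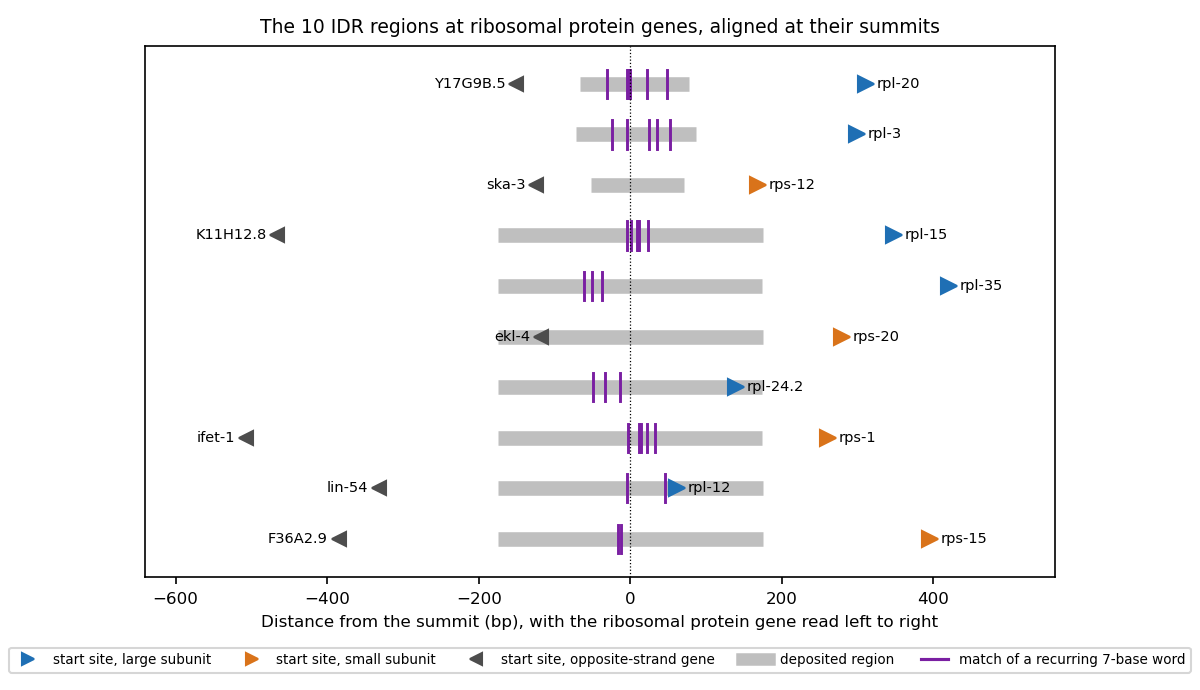
Map of the 10 IDR regions at ribosomal protein genes, aligned at their summits, with distance in bp on the axis, start sites as triangles, deposited regions as grey bars and matches of the recurring 7-base words as purple ticks. Start sites of the ribosomal protein genes lie 61 to 420 bp from the summit, an opposite-strand gene starts on the other side at 7 of the 10, and the windows of rps-12 and rps-20 hold no tick.

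Large and small subunit genes had IDR regions in nearly the same share. Of 47 large subunit genes, 6 (12.8%) had an IDR region, 22 (46.8%) a pooled region and 20 (42.6%) a region in both replicates. Of 31 small subunit genes the counts were 4 (12.9%), 17 (54.8%) and 13 (41.9%). The near-equal IDR shares rest on counting a region for every gene whose window holds its summit: with the nearest start site alone, 5 of 47 large and 1 of 31 small subunit genes had an IDR region. No test of this difference was made. The family is spread over the 6 nuclear chromosomes. Chromosome III held 18 of the genes, 12 of them with a pooled region and 4 with an IDR region, and chromosome IV held 17, with 13 and 3. Chromosome I held 23, with 9 and 3. Chromosome V held 8, with 2 pooled regions, and chromosome II held 10, with 2, and neither had an IDR region at a ribosomal protein gene. Chromosome X held 2, of which 1 had a pooled and 0 an IDR region. Among all protein-coding genes the share with an IDR region was also highest on chromosome III, at 1.7%, against 1.04% on I, 0.783% on II, 0.731% on IV, 0.501% on V and 0.439% on X. The share of all protein-coding genes with a pooled region ran from 15.1% on chromosome II to 21.3% on chromosome III.

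Summits at ribosomal protein genes covered a narrower stretch of the window than those of all protein-coding genes. The strongest pooled summit of the 39 genes lay at a median of 311 bp upstream of the nearest start site of the gene, with the middle 50% between 212.5 and 422.5 bp upstream. Over all genes the median was 340 bp upstream, with the middle 50% between 136 and 626.2 bp upstream. Between 500 and 101 bp upstream stood 28 of the 39 (71.8%), against 43.9% of all genes with a pooled region. More than 500 bp upstream stood 6 (15.4%), against 35.2%. Downstream of the start site stood 2 (5.13%), rpl-19 at 78 bp and rpl-14 at 13 bp inside the gene, against 10.2%. In the same band lay 9 of the 10 IDR summits, rpl-12 being the exception, against 64.9% of all genes with an IDR region. By subunit the medians were 317.5 bp upstream for large and 301 bp for small subunit genes, and 59.1% and 88.2% lay in the band.

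**Figure D4:**
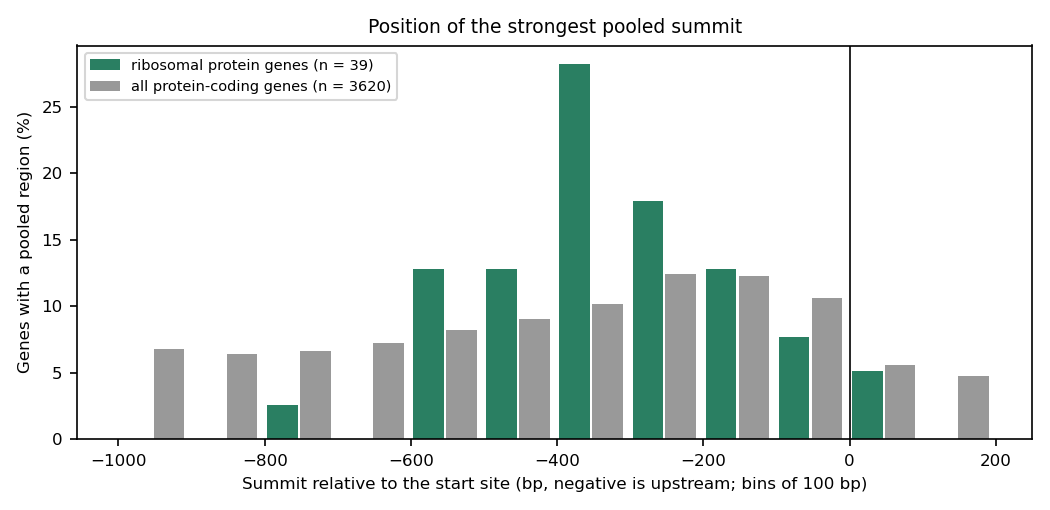
Position of the strongest pooled summit relative to the nearest start site of its gene (bp, negative is upstream), as the percent of genes with a pooled region in bins of 100 bp. The bars of the 39 ribosomal protein genes stand highest between 400 and 301 bp upstream (28.2%), while those of the 3620 protein-coding genes are spread over the window.

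The replicates lay closer together at the stronger regions. Of the 39 ribosomal protein genes with a pooled region, 32 (82.1%) had a region in both replicates, against 53.7% of all genes with a pooled region. Without the IDR genes, whose list requires both replicates, the share was 22 of 29 (75.9%), against 51.4%. The replicate summits of the 10 IDR genes lay a median of 16.5 bp apart, with 7 of 10 within 50 bp, against 25.5 bp and 75.3% for all genes with an IDR region. The closest pair was rps-12, at 3 bp, and the farthest rpl-35, at 64 bp. The 22 weaker ribosomal protein genes with regions in both replicates had summits a median of 103 bp apart, with 31.8% within 50 bp, against 142 bp and 24.5% for all such genes. Over the 33 ribosomal protein genes with a region in both, the signals of the replicates had a Spearman rank correlation of 0.857, against 0.361 over the 2464 protein-coding genes with both. This is a description across genes, which are not independent replicates, and the 10 IDR genes span much of the range. Over the 22 weaker ones the correlation was 0.558, against 0.146 over the 1771 such protein-coding genes. Over the 10 IDR genes it was 0.806, against 0.501 over the 174 protein-coding genes with an IDR region.

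**Figure D5:**
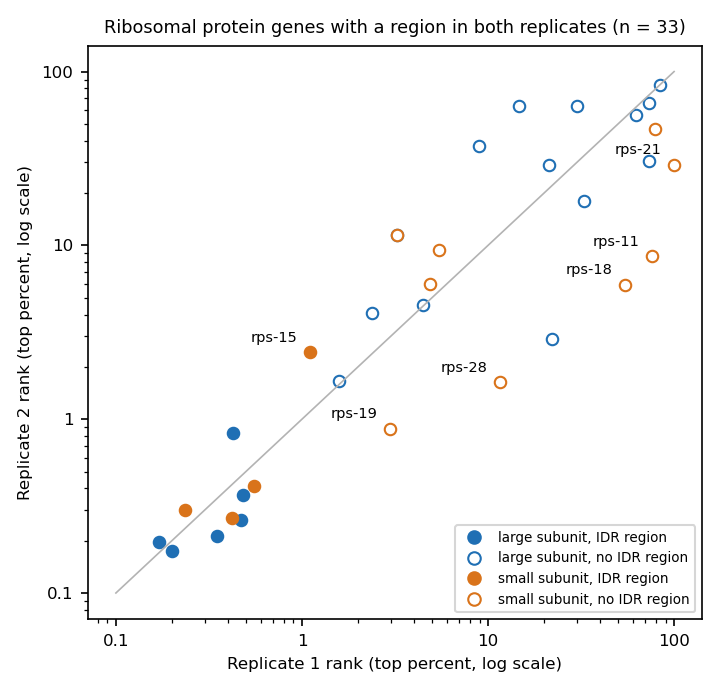
Rank of the strongest region in replicate 1 and in replicate 2 as a top percent of each list (log scales), for the 33 ribosomal protein genes with a region in both. The line marks equal top percents, the points of rpl-36 and rps-14 coincide because they share 1 region, and rps-19 lies among the highest ranks without an IDR region.

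The gene rps-19 stood apart from this pattern. Its window held a region of signal 20.5 in replicate 1 (rank 521, top 2.97%) and of 28.1 in replicate 2 (rank 161, top 0.883%), with summits 286 and 277 bp upstream, 9 bp apart. No region of the pooled list used here overlapped them, and the nearest had a signal of 17.7. It is not known whether that list is complete at this place, so rps-19 may be missing from the pooled count of 39. Of 197 nuclear regions in the top 3% of both replicates that overlapped each other, 2 (1.02%) had no overlapping pooled region. When the 212 strongest regions of a single replicate replaced the IDR list, replicate 1 gave the same 10 ribosomal protein genes, and replicate 2 gave 9 of them with rps-19 in place of rps-15.

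Many of these regions lay between divergent genes, so their summits fell in the windows of other protein-coding genes as well. An opposite-strand gene shared the summit at 7 of 10 IDR genes (70.0%), against 52.3% of all genes with an IDR region, and at 21 of the 39 with a pooled region (53.8%), against 24.1%. The partners of the IDR genes were Y17G9B.5 (rpl-20), ska-3 (rps-12), K11H12.8 (rpl-15), ekl-4 (rps-20), ifet-1 (rps-1), lin-54 (rpl-12) and F36A2.9 (rps-15). Among these, lin-54 encodes the DNA-binding subunit of the DREAM complex and ifet-1 a translational repressor. All 4 small subunit IDR genes and 3 of the 6 large subunit ones had such a partner. The ribosomal protein gene owned the nearest start site at 6 of 10 IDR regions (60%), against 66.7% for all genes with an IDR region. It did so for 23 of the 39 genes with a pooled region (59.0%), whose regions are 38 distinct ones, against 84.1% for all genes with a pooled region. For rps-12 the summit was 124 bp from the ska-3 start and 169 bp from its own. For rps-20 it was 118 bp from ekl-4. The region at rpl-30 lay 39 bp upstream of pab-1, which encodes the poly(A)-binding protein, and that at rpl-28 lay 148 bp upstream of the mitochondrial ribosomal protein gene mrpl-49. The lists alone cannot assign such a region to either gene.

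Genes for small nucleolar RNAs, which guide the chemical modification of ribosomal RNA, also shared windows with some of these summits. Of the IDR genes, rps-12 did so with F54E7.10 and F54E7.11, and rpl-15 with K11H12.12 and K11H12.13. Of the others, rpl-6 did so with R151.11 and R151.12, rpl-7A with Y24D9A.9 and Y24D9A.10, rps-23 with F28D1.13 and rps-26 with F39B2.14. At rps-26 the summit lay 50 bp upstream of the small nucleolar RNA gene, 468 bp upstream of rps-26 and 11 bp inside the opposite-strand gene tmem-107, whose start site was the nearest of a protein-coding gene. How often small nucleolar RNA genes share windows with other regions was not counted, so nothing is read from their number here.

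The summits of the IDR genes were richer in G and C than most regions. Within 100 bp of the summit the median GC content was 41.0% (33.8% to 45.3%) at the 10 IDR regions and 38.1% at the 38 distinct pooled regions of ribosomal protein genes. It was 39.3% at the 101 other IDR regions in promoter windows and 31.3% at the 3589 other pooled regions in promoter windows. The part of GC content in the counts of regions was not tested. Fixed motifs were searched on both strands of the same windows. The DM-domain core ACAATGT was found at 1 of 10 IDR genes, rpl-3, against 2.97% of other IDR and 3.32% of other pooled promoter regions. The MAB-3 core TGTTGC was found at 3 of 10, against 9.9% and 7.89%. Among all 38 distinct pooled regions of ribosomal protein genes, which include these 10, it was found at 4. The word CTTGCGC, named in an earlier search of these regions, was found at 1 of 10, against 18.8% and 1.7%. Neither CCCTGCG nor its companion GCAGGGA was found in any of the 38 windows. In other pooled promoter regions they were also rare, at 0.362% and 0.724%. Among other IDR promoter regions the shares were 6.93% and 8.91%. The E-box CACGTG and the TATA box TATAAA were found at 0 of 10 each, against 4.95% and 18.8% of other IDR promoter regions. The splice acceptor TTTCAG was found at 3 of 10, against 21.8%, and the repeat GAGAGA at 3 of 10, against 26.7%. A match is a run of letters, not a site.

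The words in capitals above were picked after the sequences were read, as 7-base words in at least 4 of the 10 IDR windows and in under 2% of other pooled promoter regions. Both their counts in the 10 windows and their low shares in other pooled promoter regions are therefore fixed in part by the choice, and nothing is read from setting these against each other. There were 7 of them. The IDR list was derived from the candidate regions, so the 101 other IDR promoter regions do not stand apart from the choice. GCTCCAC was found in 5 windows, against 6.93% of those regions. The others were found in 4 windows each, namely AACACGC (9.9% of other IDR promoter regions), ACACTCG (1.98%), AGCGCGG (2.97%), CATACAC (0.99%), CGACGCA (0.99%) and GAGTGTA (3.96%). At least 1 of the 7 words was found at 8 of 10 IDR genes and in 22.8% of other IDR promoter regions. ACACTCG on one strand and GAGTGTA on the other can overlap in the same letters. At least 2 of the 7 words were found at 8 of 10 IDR genes. The same held for 0 of the 28 weaker regions of ribosomal protein genes and 3 of 101 (2.97%) other IDR promoter regions. Both counts of 8 of 10 are set in part by the choice of words, so nothing is read from setting them against the other shares. At rpl-15 a run of these words covered the summit itself: GCTCCAC ended 1 bp before it, AACACGC spanned it, and CATACAC stood 9 to 15 bp after it. At rpl-20, GAGTGTA ended at the summit, and at rps-1, GCTCCAC did. No word was found farther than 64 bp from its summit. Windows of rps-12 and rps-20 held none of the 7, although rps-12 had the third highest signal of the family.

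A few other genes of translation also had IDR regions. Over all protein-coding genes, 0.871% had an IDR region and 18.1% a pooled region. Of 70 mitochondrial ribosomal protein genes, 1 (1.43%) had an IDR region, mrpl-12 at a signal of 49.0, and 20 (28.6%) a pooled region. Of 42 translation factor genes, 2 (4.76%) had one, eif-3.C at 67.2 and eif-3.B at 53.1, both subunits of initiation factor eIF3, and 18 (42.9%) a pooled region. Of 23 ribosome assembly genes, 0 had an IDR region and 4 (17.4%) a pooled region. These lists follow gene names, so rpl-24.2, related to a yeast assembly protein, is counted with the ribosomal protein genes and not here. Of 6 other cytosolic ribosome genes outside the naming rule (the stalk and ubiquitin-fusion genes and rack-1), 1 had an IDR region, ubq-2 at 49.5, and 4 a pooled region. These signals all lay below those of 9 of the 10 ribosomal protein genes with an IDR region.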

How the data were processed

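Per the deposited file descriptions, enriched regions were called by the authors for each replicate and for both together against a control alignment, and the IDR list was derived from these. The sources used here do not name the caller, the control or the IDR threshold. Each region's signal is the authors' deposited value, of unstated scale, and served to describe and rank regions of the same list. The −log10 q-values deposited beside it were not used to rank. No counts were used, so depth is unknown.

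From these lists, summits (start plus deposited offset, counted from 1) were assigned to every protein-coding gene of Ensembl release 115 whose window held them, and the strongest region per gene and list was kept. Sequences were read from the WBcel235 genome, and that at rps-12 is not reported here. Assignment was tested on simulated data. Python 3.11.15 with pandas 2.3.3, numpy 2.4.6 and pysam 0.24.0 was used, and matplotlib 3.10.9 for figures. No statistical test was made, with 1 group. The genes, comparison lists and motifs were chosen with earlier results of these data known. Genes named are all with an IDR region, the 12 strongest and 6 weakest others in the pooled list, those without any region, those sharing a region, and comparison genes with an IDR region. Others (rps-19, genes with a region in 1 replicate alone, rpl-19, rpl-14 and the paralogues) were named after their values were seen. Alternatives were other windows, other start sites, the nearest start alone, any overlap, stronger regions and single replicates. The ce10 lists were not used here.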

Additional observations from a re-analysis of the deposited data

How the results depend on the processing

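Assigning each region to the gene with the nearest start site alone changed most counts. Ribosomal protein genes with an IDR region became 6 in place of 10 (small subunit 1 in place of 4, large subunit 5 in place of 6). Those with a pooled region became 24 in place of 39, and those with a region in both replicates 21 in place of 33. Under that rule 0.595% of all protein-coding genes had an IDR region and 15.5% a pooled region. The median summit position, at -311 bp, became -284.5 bp under that rule, -295 bp in a window of 500 bp upstream to 100 bp downstream and -327 bp in one of 2000 bp upstream to 500 bp downstream. With a single replicate it was -290 to -288 bp, so the median moves by about as much between the pooled list and either replicate as between windows. Single replicates gave 10 to 10 genes in place of the IDR list (large 6 to 6, small 4 to 4) and 43 to 44 in place of the pooled list. The other windows, the start of the gene alone, any overlap with the window and the stronger IDR regions (9 genes) kept each count within 1.5 times the value reported. No paired analysis was possible because there is 1 group and no test was made. With 2 replicates, unknown depth and an unstated signal scale, no interval can be given for a region's signal.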

Other observations

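Among ribosomal protein genes with paralogous copies, the copies differed in what the lists held. The pooled list had a region at rpl-11.2 (signal 22.9, top 16.3%), while rpl-11.1 had none in any list used here. By name rpl-24.2 is paired with rpl-24.1, although it is related to a yeast assembly protein. An IDR region was present at rpl-24.2 (pooled signal 91.9), while rpl-24.1 had a region in replicate 2 alone, at the top 93.2%. At rpl-41.1 the pooled signal was 18.7, and rpl-41.2 had a region in replicate 1 alone, at the top 18.5%. At rpl-25.2 a region was listed in replicate 1 alone, at the top 12.5%, and rpl-25.1 had none. Each of these pairs was named after its values were seen, and no difference within a pair was tested.

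The 4 ribosome assembly genes with a pooled region had signals from 29.7 to 33.2, all in the top 10% of the list, although none had an IDR region. In replicate 1, 10 ribosome assembly genes had a region and 2 of them stood in the top 10%. In replicate 2, 7 had a region and 4 of them stood in the top 10%. The 20 mitochondrial ribosomal protein genes with a pooled region had a median signal of 18.8, with 25.0% in the top 10%.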
